A study of Rattus norvegicus with 24 samples.

Results

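The 7 microRNAs described here are rno-miR-188-5p, rno-miR-1224, rno-miR-483-5p, rno-miR-328a-5p, rno-miR-1306-3p, rno-miR-874-3p and rno-miR-139-3p, out of 719 rat miRNAs on the array and 283 that were bright enough to be fitted. All 7 were among the 283. They were chosen by measured values of these same arrays, namely a shift that they shared once the glass slide was a term in the fit, so that shift is given below as a description, without a test. MicroRNAs were measured in lung tissue of Fischer-344 rats of both sexes, 7 to 8 weeks old, that breathed filtered clean air or an aerosol of hexanal, a volatile aldehyde, at 600, 1000 or 1500 ppm by the sample titles (the treatment notes give the same figures in mg/m3), for 4 hours a day on 5 days a week over 5 weeks. Each of the 4 groups held 6 rats, 3 males and 3 females, with 1 single-colour (Cy3) array for each rat.

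A microRNA is a short RNA that is cut from a hairpin precursor, loaded into an Argonaute protein, and guided by its seed, bases 2 to 8 from the 5′ end, to messenger RNAs, which it represses. Each hairpin can release an arm from its 5′ side and an arm from its 3′ side, and usually 1 of the 2 is kept and the opposite arm is mostly degraded. The members come from unrelated hairpins. In the RefSeq annotation of the rat genome, several of their hairpins lie within protein-coding genes: Mir483 in Igf2, which encodes a fetal growth factor, Mir139 in Pde2a, a cyclic nucleotide phosphodiesterase, Mir188 in Clcn5, a chloride and proton exchanger of endosomes, Mir874 in Klhl3, an adaptor of a ubiquitin ligase, Mir1306 in Dgcr8, whose protein helps to cut miRNA hairpins, and Mir1224 in Vwa5b2. Mir1224 is known as a mirtron, a hairpin released by splicing of a short intron.

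The mature sequences are shown because the members share no seed but have a composition in common. They are from RefSeq (GRCr8), 5′ to 3′, with the seed in capitals, and 6 of the 7 members had an entry, rno-miR-328a-5p being named only.
rno-miR-188-5p: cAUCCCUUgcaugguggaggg
rno-miR-1224: gUGAGGACuggggagguggag
rno-miR-483-5p: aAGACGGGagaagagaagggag
rno-miR-1306-3p: gACGUUGGcucugguggugaug
rno-miR-874-3p: cUGCCCUGgcccgagggaccga
rno-miR-139-3p: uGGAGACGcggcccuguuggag
These lie in GRCr8 at chrX:17919595-17919615 (plus strand), chr11:93811355-93811375 (minus), chr1:207247903-207247924 (minus), chr11:96214007-96214028 (plus), chr17:6626076-6626097 (plus) and chr1:165290901-165290922 (plus), in the same order.

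All 6 seeds differed, and no other miRNA among the 249 fitted ones with a RefSeq sequence carried any of them. Guanine made up 36.4% to 61.9% of the bases of the members, with a median of 45.5%, against a median of 23.8% over the 249 miRNAs, of which 81.1% had a lower guanine share than the lowest member. Guanine and cytosine together made up 54.5% to 77.3% of the bases, against a median of 47.8% over the 249. The letters GGAG, picked after the sequences were seen and read on the mature strand alone, stood in 4 of the 6 members (rno-miR-188-5p, rno-miR-1224, rno-miR-483-5p and rno-miR-139-3p) and in 24 of the 249 miRNAs (9.64%).

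How the arrays were placed on the slides decides how these values can be read. Each of 3 slides held 8 arrays in 2 rows of 4. Slide 1 held males alone (3 control, 3 at 600 ppm and 2 at 1000 ppm), and slide 3 females alone (2 at 600, 3 at 1000 and 3 at 1500 ppm). Slide 2 held 4 males in its first row (1 at 1000 and 3 at 1500 ppm) and 4 females in its second row (the 3 control females and 1 female at 600 ppm). On slide 2, then, sex, row and exposure changed together and cannot be told apart. Over the 24 arrays, the 75th percentile of the processed intensity that was used for scaling ran from 662 to 1226. The share of an array's spots that were flagged as well above background ran from 27.4% to 38.2%.

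The label under which these miRNAs were grouped, low miRNAs with a strong slide offset, held in part only. Levels are given throughout as log2 of the intensity after each array was scaled to a common 75th percentile, with a floor at an intensity of 11.3. On that scale rno-miR-1224 was not a low miRNA: its scaled intensity was 586 on the dimmest array and 2668 on the brightest, and both of its probes were well above background on all 24 arrays. The other 6 members lay nearer the floor, from a scaled intensity of 14.0 for the dimmest array of rno-miR-874-3p to 103 for the brightest array of rno-miR-188-5p. Every member had at least 1 probe well above background on all 24 arrays, and for 4 of the 7 each probe used was above background on every array. Of the 18 probes for the members, 17 were used. The slide offset is described next, and it was not an offset of a whole slide.

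In the mean of the 7 members the 4 females of slide 2 were the highest arrays, 1 of them only just. The males of the same slide did not share this. The mean of the 7 members' log2 levels was 6.19 ± 0.27 (SD, n = 4) in the females of slide 2, 5.45 ± 0.20 (n = 4) in the males of slide 2, 5.58 ± 0.12 (n = 8) in the males of slide 1 and 5.47 ± 0.21 (n = 8) in the females of slide 3. The 4 females of slide 2 ran from 5.82 to 6.47 in this mean, and the highest of the other 20 arrays, a 1500 ppm female of slide 3, was at 5.79. Among the 4 females, the 600 ppm rat numbered 26 was the highest for 6 of the 7 members, and the control rat numbered 21 was the lowest for 6 of the 7. Rat 21, at 5.82 in the mean, lay within the range of the other 20 arrays for every member but rno-miR-188-5p.

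**Figure D1:**
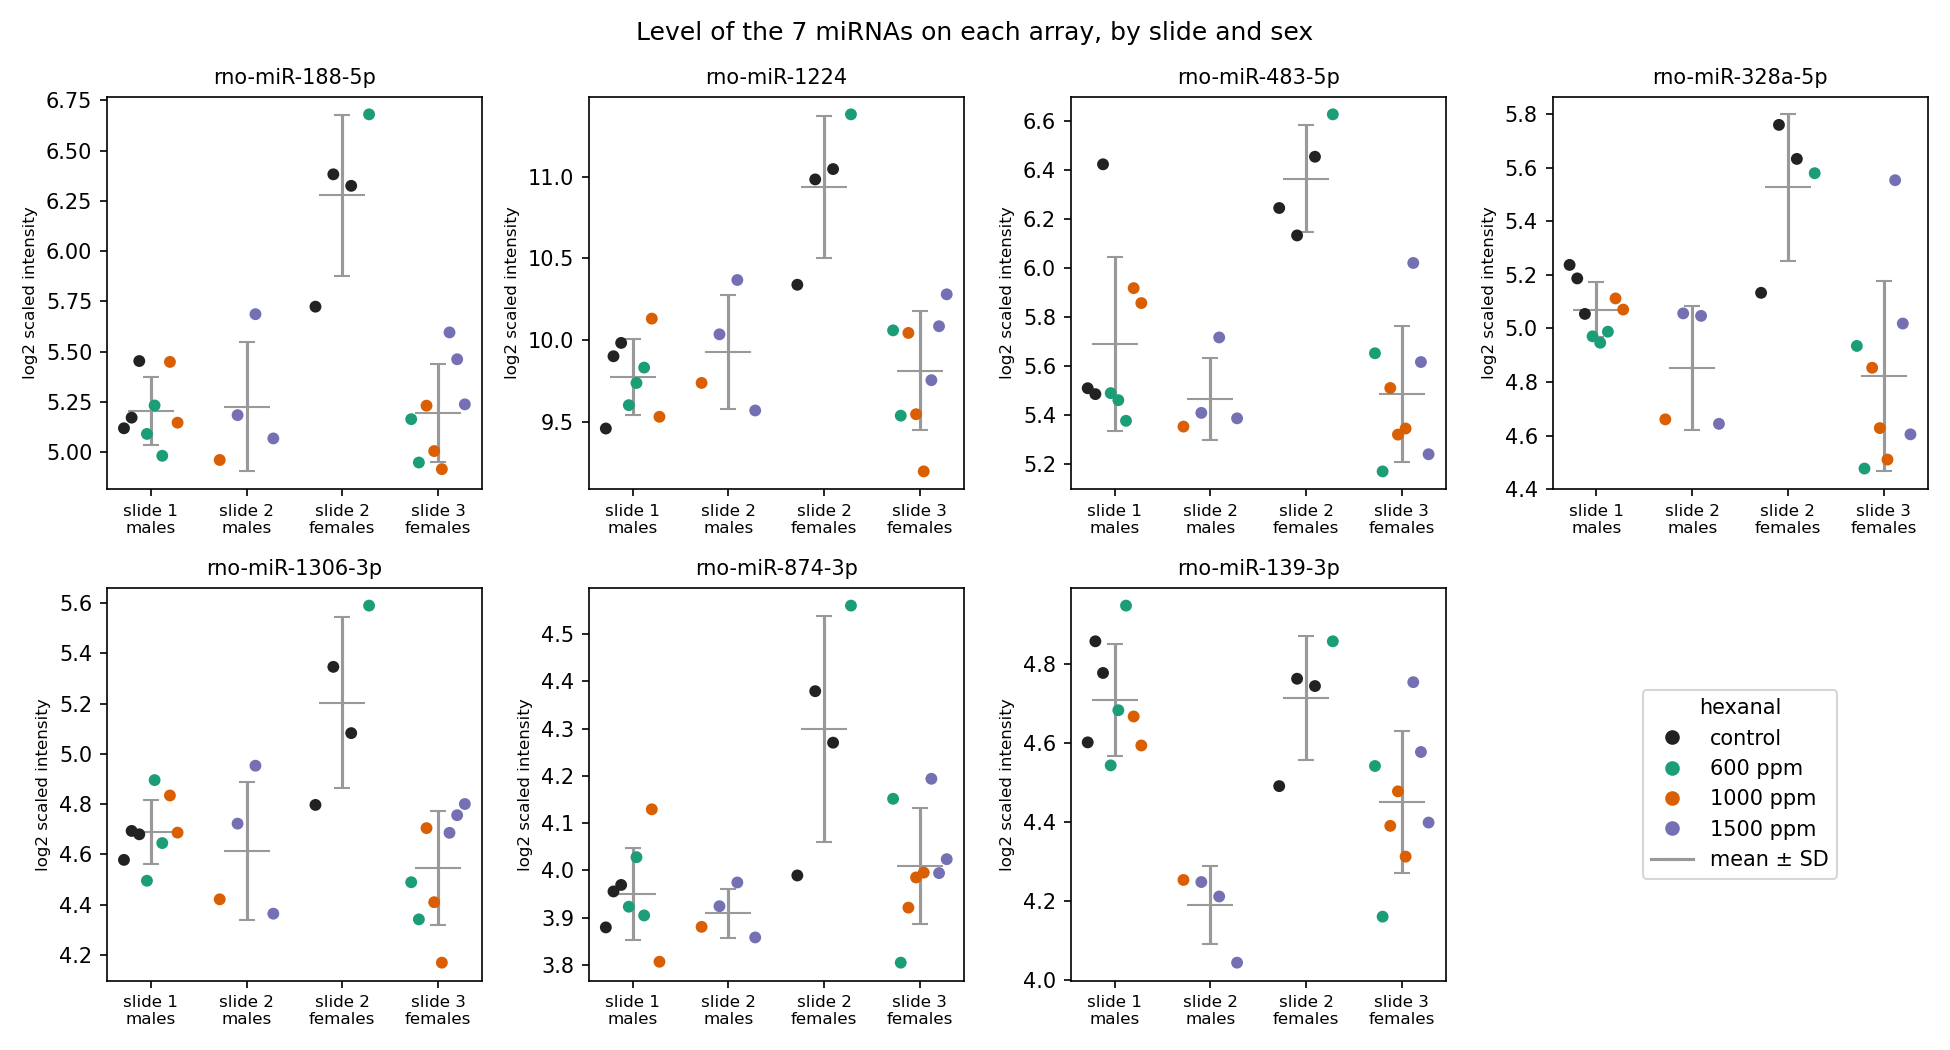
Log2 scaled intensity of each of the 7 miRNAs (vertical axis, a separate range in each panel) on the 24 arrays, split by slide and sex, with colours for the exposure groups and grey bars for the mean ± SD of each set. The females of slide 2 stand above the males of slide 2 in their mean in every panel, and in the panel of rno-miR-139-3p the males of slide 1 are as high as they are.

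For rno-miR-188-5p, the 3 control females of slide 2 (rats 21, 22 and 23) were at log2 5.72, 6.38 and 6.32 and the 600 ppm female (rat 26) at 6.68. The males of slide 2 were at 4.96 (1000 ppm), 5.18, 5.69 and 5.07 (1500 ppm), and the 16 arrays of the other slides lay between 4.92 and 5.60. No array outside the 4 females reached their lowest value. Of all 283 miRNAs, 2 (0.707%) had the 4 females above every one of the other 20 arrays, and rno-miR-188-5p was the only member among them.

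For rno-miR-1224, the control females of slide 2 were at 10.34, 10.98 and 11.05 and the 600 ppm female at 11.38. The males of slide 2 were at 9.74 (1000 ppm), 10.04, 10.37 and 9.57 (1500 ppm). The 2 sets overlapped by a single pair, since the highest male lay just above the lowest female. The males of slide 1 had a median of 9.78 (9.46 to 10.13) and the females of slide 3 a median of 9.90 (9.20 to 10.28).

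For rno-miR-483-5p, whose 4 probes were all above background on every array, the control females of slide 2 were at 6.24, 6.13 and 6.45 and the 600 ppm female at 6.63. The males of slide 2 were at 5.35 (1000 ppm), 5.41, 5.72 and 5.39 (1500 ppm). These did not overlap, but 1 control male of slide 1 was at 6.42 and so lay among the females, while the median of slide 1 was 5.50 and that of slide 3 was 5.43.

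For rno-miR-328a-5p, the control females of slide 2 were at 5.13, 5.76 and 5.63 and the 600 ppm female at 5.58, above the males of that slide at 4.66 (1000 ppm), 5.06, 5.05 and 4.64 (1500 ppm). On slide 3 the females ran from 4.48 to 5.55 with a median of 4.74, so the highest of them overlapped with slide 2. The males of slide 1 stayed close together, from 4.95 to 5.24.

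For rno-miR-1306-3p, the control females of slide 2 were at 4.80, 5.35 and 5.08 and the 600 ppm female at 5.59. The males of slide 2 were at 4.42 (1000 ppm), 4.72, 4.95 and 4.36 (1500 ppm). Here 1 male lay above the lowest female, and the medians of slides 1 and 3 were 4.68 and 4.59.

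The remaining members had the smallest differences. For rno-miR-874-3p, the control females of slide 2 were at 3.99, 4.38 and 4.27 and the 600 ppm female at 4.56. The males of slide 2 ran from 3.86 to 3.97, just under the lowest female. The males of slide 1 reached 4.13 and the females of slide 3 reached 4.19, both above that female. For rno-miR-139-3p, the control females were at 4.49, 4.76 and 4.74 and the 600 ppm female at 4.86. The males of slide 2 ran from 4.04 to 4.25, without overlap. The pattern of rno-miR-139-3p over the slides was a different one: the females of slide 2 (4.71 ± 0.16, SD, n = 4) were level with the males of slide 1 (4.71 ± 0.14, n = 8), the females of slide 3 lay lower (4.45 ± 0.18, n = 8, from 4.16 to 4.75), and the males of slide 2 were the lowest in their mean (4.19 ± 0.10, n = 4), overlapping with slide 3.

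In all, the females of slide 2 exceeded the males of slide 2 by a log2 difference of 1.05 for rno-miR-188-5p, 1.01 for rno-miR-1224, 0.90 for rno-miR-483-5p, 0.67 for rno-miR-328a-5p, 0.59 for rno-miR-1306-3p, 0.52 for rno-miR-139-3p and 0.39 for rno-miR-874-3p. The median over all 283 miRNAs was -0.01, and their 5th and 95th percentiles were -0.19 and 0.63. The 4 females lay wholly above the 4 males for 5 of the 7 members and for 31 of the 283 miRNAs (11%); the members were chosen with such values in view, so nothing is read from this count. Every one of the 17 probes used gave a difference in the same direction, from 0.19 to 1.07, where 46.6% of the 283 miRNAs were above 0. The members were chosen for a shared shift, so the direction of their probes is no separate support. The probes of a miRNA were closest for rno-miR-188-5p (1.04 and 1.06) and furthest apart for rno-miR-874-3p (0.19 to 0.77 over 4 probes). Larger differences than that of rno-miR-188-5p were measured for 2 other miRNAs, rno-miR-3588 (1.63) and rno-miR-125a-3p (1.34), which were named after their values were seen.

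**Figure D2:**
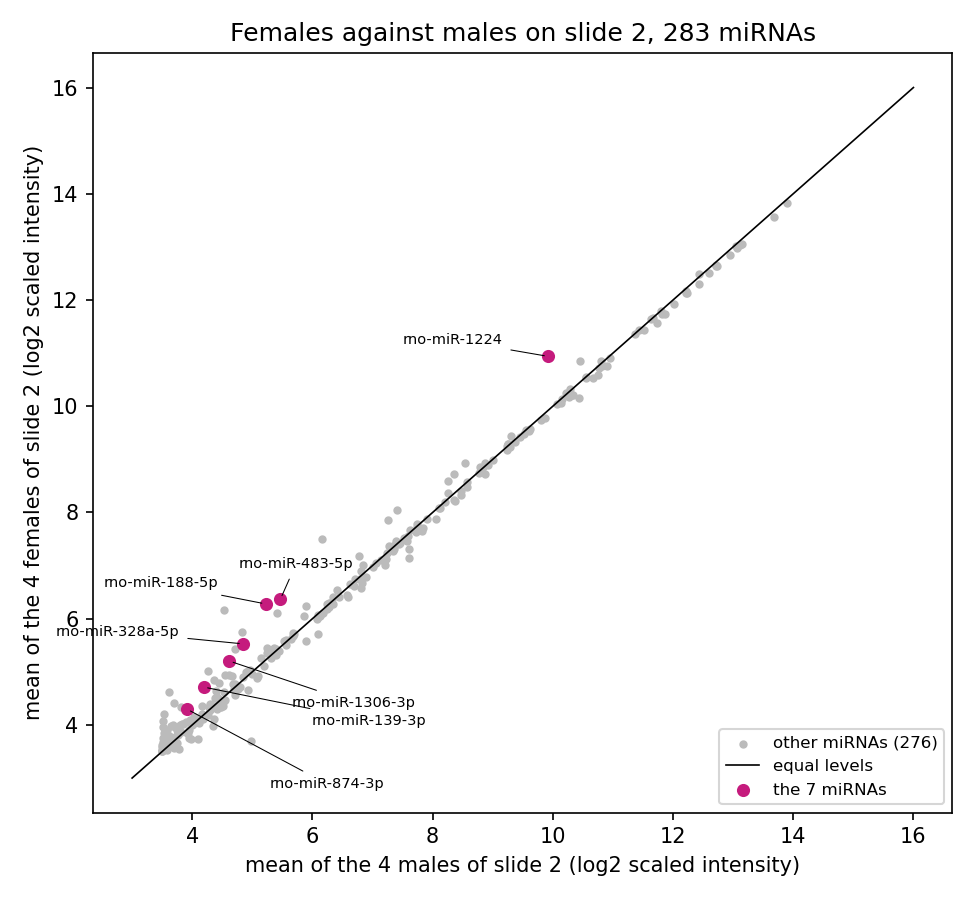
Each point is 1 of the 283 miRNAs, with its mean log2 scaled intensity in the 4 males of slide 2 (horizontal axis) and in the 4 females of slide 2 (vertical axis), and the line marks equal levels. The 7 members (coloured and named) lie above the line by 0.39 to 1.05, while most other miRNAs lie on it.

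Between the rows of the other slides the differences were smaller. On slide 1, where both rows held males, the second row minus the first gave a median of 0.03 over the 7 members (-0.08 to 0.15). On slide 3, where both rows held females, it was 0.12 (0.03 to 0.22), above 0 for all 7. Over all 283 miRNAs the medians were 0.005 on slide 1 and -0.006 on slide 3, with 53.7% and 45.9% above 0. Their 5th and 95th percentiles were -0.17 and 0.20 on slide 1 and -0.17 and 0.26 on slide 3. The females of slide 3 minus the males of slide 1, a comparison across slides, gave a members' median of -0.14 (-0.26 to 0.06). Measures of the whole array were also alike on slide 2: the 75th percentile was 666 to 751 in the females and 662 to 766 in the males, and 244 to 267 and 250 to 259 miRNAs were above background.

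Markers of tissue parts and of other cell types are given here beside the members, and their part in the members' levels was not tested. All 5 lung epithelium markers, both endothelial and both smooth muscle markers were measured on every array, and the summed level of each list was within 0.4 log2 units over the 8 arrays of slide 2: 11.38 to 11.75 for the epithelium, 13.58 to 13.89 for the endothelium and 12.69 to 12.94 for smooth muscle. The 4 leukocyte markers, all higher in the females, summed to 11.73 to 12.29 in them and 11.64 to 11.89 in the males of slide 2. Their differences were 0.39 for rno-miR-142-3p, 0.37 for rno-miR-142-5p, and only 0.04 each for rno-miR-223-3p and rno-miR-150-5p. Of all 283 miRNAs, 46.6% were higher in those females. The 3 red cell markers, all lower in the females, summed to 10.09 to 10.60 in them and 10.05 to 10.88 in the males. Of 4 striated muscle markers 3 were measured, all lower in the females, with sums of 7.27 to 7.57 against 7.00 to 9.61. Their log2 differences were -1.28 for rno-miR-1-3p, larger in size than that of any member, -0.46 for rno-miR-133b-3p and -0.37 for rno-miR-133a-3p, and rno-miR-206-3p, a skeletal muscle marker, was above background on no array. The liver marker rno-miR-122-5p was at 4.00 to 5.83 in the females and 3.53 to 6.00 in the males, and neither brain marker (rno-miR-124-3p, rno-miR-9a-5p) was above background on any array. In lung tissue as a whole, more cells of a type and more RNA per cell cannot be told apart.

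In the 600 and 1000 ppm groups, rats of 1 sex were placed both on slide 2 and on another slide, so that exposure and sex are the same while slide and row both differ, with 1 array against 2. The 600 ppm female on slide 2 exceeded the mean of the 600 ppm females of slide 3 by a members' median log2 difference of 1.18 (0.51 to 1.62). The median over all 283 miRNAs was -0.03. Thus for rno-miR-188-5p it was at 6.68 against 5.16 and 4.95. The 1000 ppm male on slide 2, in contrast, lay below the mean of the 1000 ppm males of slide 1. The members' median was -0.34 (-0.53 to -0.09), the median over all miRNAs being 0.01. These are differences of single arrays without a test, in miRNAs that were chosen for a shared shift.

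The linear fits in limma, a package that fits each miRNA and pools the spread over all of them, summarise the same values. With dose group and slide in the fit, the members' median slide offset was -0.23 for slide 1 minus slide 2 (from -0.72 for rno-miR-1224 to 0.22 for rno-miR-139-3p) and -0.29 for slide 3 minus slide 2 (-0.49 to 0.08). An adjusted p under 0.05 was found for 154 of the 283 miRNAs (54.4%) between slides 1 and 2 and for 9 (3.18%) between slides 3 and 2, of which 2 and 0 were members. The median size of the offset, without its sign, was 0.23 for the members and 0.21 over all miRNAs for slide 1 against slide 2, and 0.29 and 0.09 for slide 3 against slide 2. Without the 4 females of slide 2, the members' median offsets were 0.35 and 0.12, both of the opposite sign, with all 7 members above 0.

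With sex, slide and dose group in the fit, males minus females gave negative estimates for all 7 members: -1.43 ± 0.24 (SE) for rno-miR-188-5p, -1.33 ± 0.32 for rno-miR-1224, -1.12 ± 0.29 for rno-miR-483-5p, -0.97 ± 0.20 for rno-miR-1306-3p, -0.89 ± 0.24 for rno-miR-328a-5p, -0.61 ± 0.16 for rno-miR-139-3p and -0.53 ± 0.13 for rno-miR-874-3p. Over all 283 miRNAs the median was 0.06, and 99 of them were below 0. This contrast rests on slide 2, the one slide with both sexes, and 10 of the 283 miRNAs (3.53%) passed an adjusted p of 0.05 in it. All 7 members were among these 10. They were chosen for a shift that they shared with slide in the fit, as it is here, so this count supports nothing further about them. The other 3 were rno-miR-211-3p (-0.96), rno-miR-370-3p (-0.97) and rno-miR-351-3p (-0.31). Nearest to the threshold inside it was, of the members, rno-miR-328a-5p, and just outside it lay rno-miR-150-3p (-0.67 ± 0.20). Members past the threshold numbered between 1 (without the 600 ppm female of slide 2) and 7 when single arrays were left out. With no slide in the fit, the members' median was -0.16 (-0.36 to -0.003).

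The exposure comparison the design implies is of each hexanal group with the clean air control, and for the members the sign of the difference depended on how slide and sex entered the fit. Over the groups as wholes, rno-miR-188-5p was at 5.70 ± 0.55 (SD, n = 6) in the control, 5.35 ± 0.66 at 600 ppm, 5.12 ± 0.20 at 1000 ppm and 5.37 ± 0.25 at 1500 ppm. Spreads were larger in the control and 600 ppm groups, which held the 4 high females, and the control exceeded the 1000 ppm group by about the size of its own SD. With slide in the fit, the members' median difference from the control was -0.11 at 600 ppm (-0.31 to 0.01), -0.39 at 1000 ppm (-0.47 to -0.12) and -0.29 at 1500 ppm (-0.47 to -0.11), with standard errors of single members from 0.10 to 0.27. The medians over all 283 miRNAs were 0.02, -0.01 and -0.02. The members were picked for a shared shift with slide in the fit, so their medians here are a description. No miRNA of the 283 (0%) passed an adjusted p of 0.05 in limma at any dose, member or not, and 23, 24 and 24 miRNAs had an unadjusted p below 0.05.

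**Figure D3:**
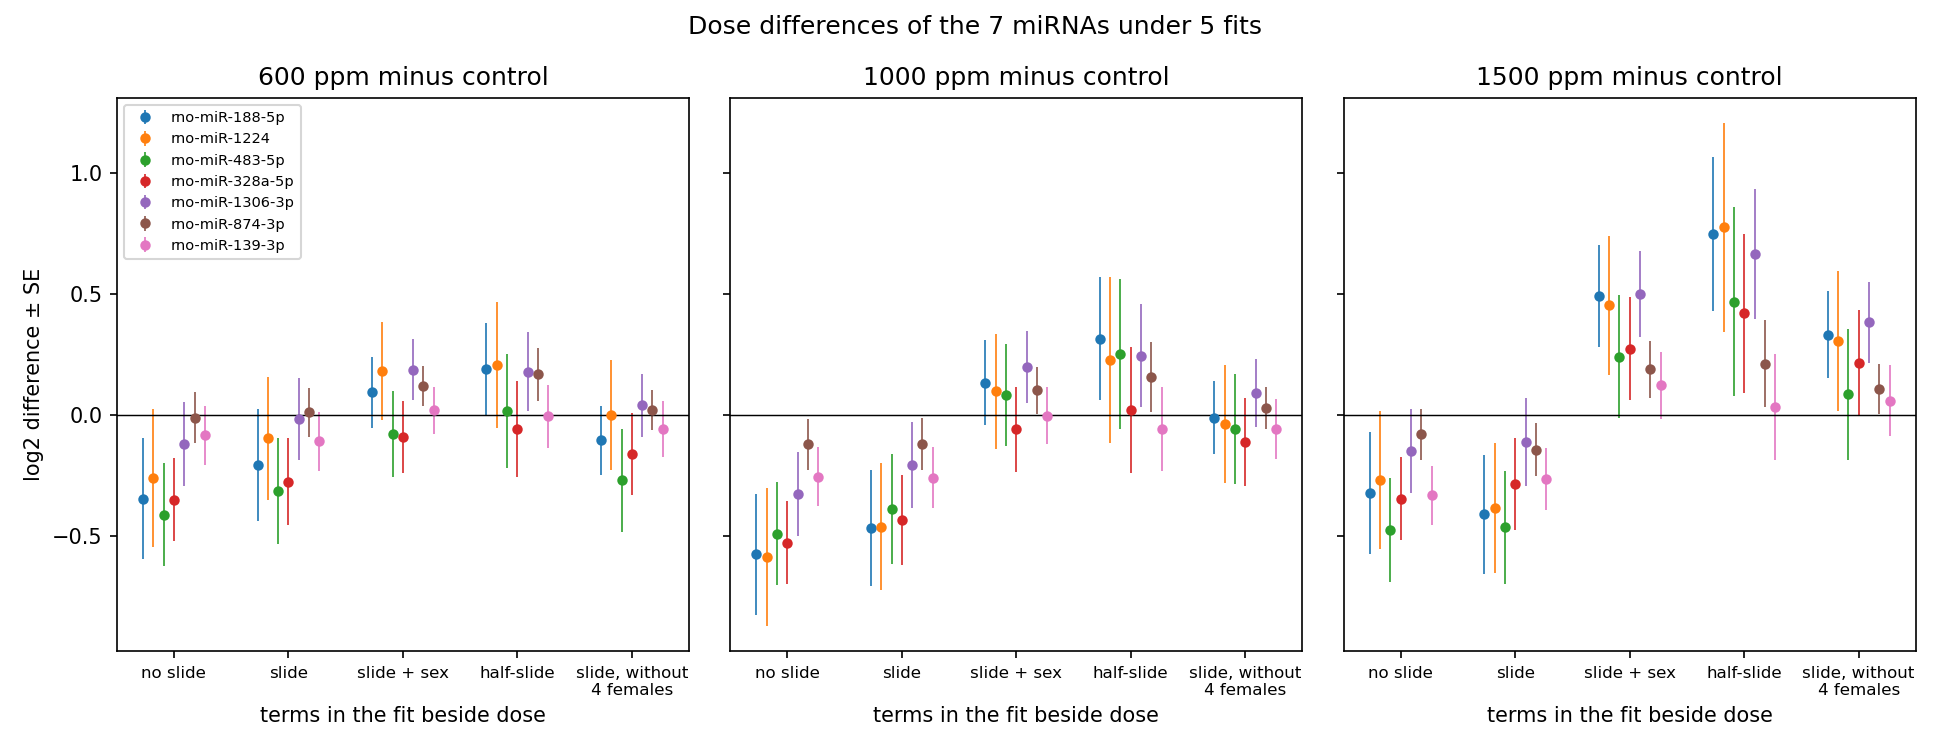
Log2 difference from the control (vertical axis, with its standard error) of the 7 members at each dose, under 5 limma fits that differ in the terms beside dose. At 1500 ppm the members' medians are -0.32 without slide and -0.29 with slide, and 0.27 with slide and sex, 0.47 with half-slide and 0.22 without the 4 females of slide 2. The values of 0.27, 0.47 and 0.22 are indirect, through arrays of the lower doses.

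With sex added to slide, the medians were 0.09, 0.10 and 0.27 in the order of dose, and with half-slide (the row of 4 arrays) in place of slide they were 0.17, 0.23 and 0.47. Without the 4 females of slide 2 they were -0.06, -0.04 and 0.22. The medians of -0.39 and -0.29 at 1000 and 1500 ppm belong to the fit with slide, which held the 4 females and had no term for sex or row. Without slide as well, they were -0.49 and -0.32. The cause of the change between the fits was not tested. At 1500 ppm the differences were above 0 for all 7 members with sex, with half-slide and without the 4 females. Their standard errors reached 0.29 with sex and 0.43 with half-slide. None of these 3 fits compared 1500 ppm rats with controls directly. On slide 2 the controls were females and the 1500 ppm rats males, and no row held both groups. Without the 4 females, controls were left on slide 1 alone, which held no 1500 ppm rat. The 1500 ppm values therefore rest on links through arrays of the lower doses, some of which are single rats. Medians over all 283 miRNAs in these 3 fits were -0.05, -0.10 and -0.04. The members were chosen for a shared shift, so their common sign is not 7 separate results.

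Within slides 1 and 3, where neither slide nor sex differs, the males of slide 1 gave a members' median of -0.06 for 600 ppm minus control (3 against 3 rats, -0.36 to 0.03) and 0.05 for 1000 ppm minus control (2 against 3 rats, -0.11 to 0.11). On slide 1 all 3 controls were in the first row and both 1000 ppm males in the second, so row and dose cannot be told apart there, and 2 of the 3 males at 600 ppm were in the second row. For rno-miR-188-5p these 3 means were 5.25 in the control, 5.10 at 600 ppm and 5.30 at 1000 ppm. Slide 3 held no control, and its females gave -0.01 for 1000 minus 600 ppm (3 against 2 rats, -0.20 to 0.04). The 1500 ppm females were above the 600 ppm females by 0.24 (3 against 2 rats, 0.09 to 0.38) and above the 1000 ppm females by 0.32 (3 against 3 rats, 0.10 to 0.44), in all 7 members, beside medians over all miRNAs of -0.07 and -0.05. On slide 3 the 1500 ppm females filled 3 of the 4 places of the second row, so row and dose nearly coincide there.

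The members also rose and fell together from array to array. With each slide centred on its own mean, the 21 pairs of members had a median Pearson's r of 0.80 (0.63 to 0.92) over 24 arrays, where the median over all 39903 pairs of miRNAs was 0.09. The arrays share their slides and their scaling, and the members were picked for a shared shift. When slide and sex were both centred, so that the gap between the females and males of slide 2 was removed, the median over the pairs was 0.58 (0.34 to 0.86). By slide, over 8 arrays each, the medians were 0.94 on slide 2, 0.73 on slide 3 and 0.18 on slide 1, where 15 of the 21 pairs were above 0. The median r was thus lowest among the males of slide 1, where the SD of the members' mean (0.12) was also the smallest of the 4 sets, although single members such as rno-miR-483-5p (SD 0.35) varied more there than in other sets.

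The 5 other miRNAs most like the members' mean, by Pearson's r over 24 slide-centred arrays, were rno-miR-370-3p (0.87), rno-miR-211-3p (0.85), rno-miR-3564 (0.83), rno-miR-150-3p (0.81) and rno-miR-134-5p (0.79). On slide 2 their females exceeded their males by 0.76, 0.92, 0.68, 0.64 and 0.72. The values that picked them hold this gap, so it is a description only. A member set against the mean of the other 6 gave r between 0.79 (rno-miR-483-5p) and 0.97 (rno-miR-188-5p). These 5 miRNAs thus lay within the range of the members themselves and not apart from the list. When slide and sex were both centred, their r ran from 0.56 (rno-miR-134-5p) to 0.75 (rno-miR-370-3p). Of the 24 arrays, rno-miR-3564 was above background on 14 and rno-miR-134-5p on 17.

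**Figure D4:**
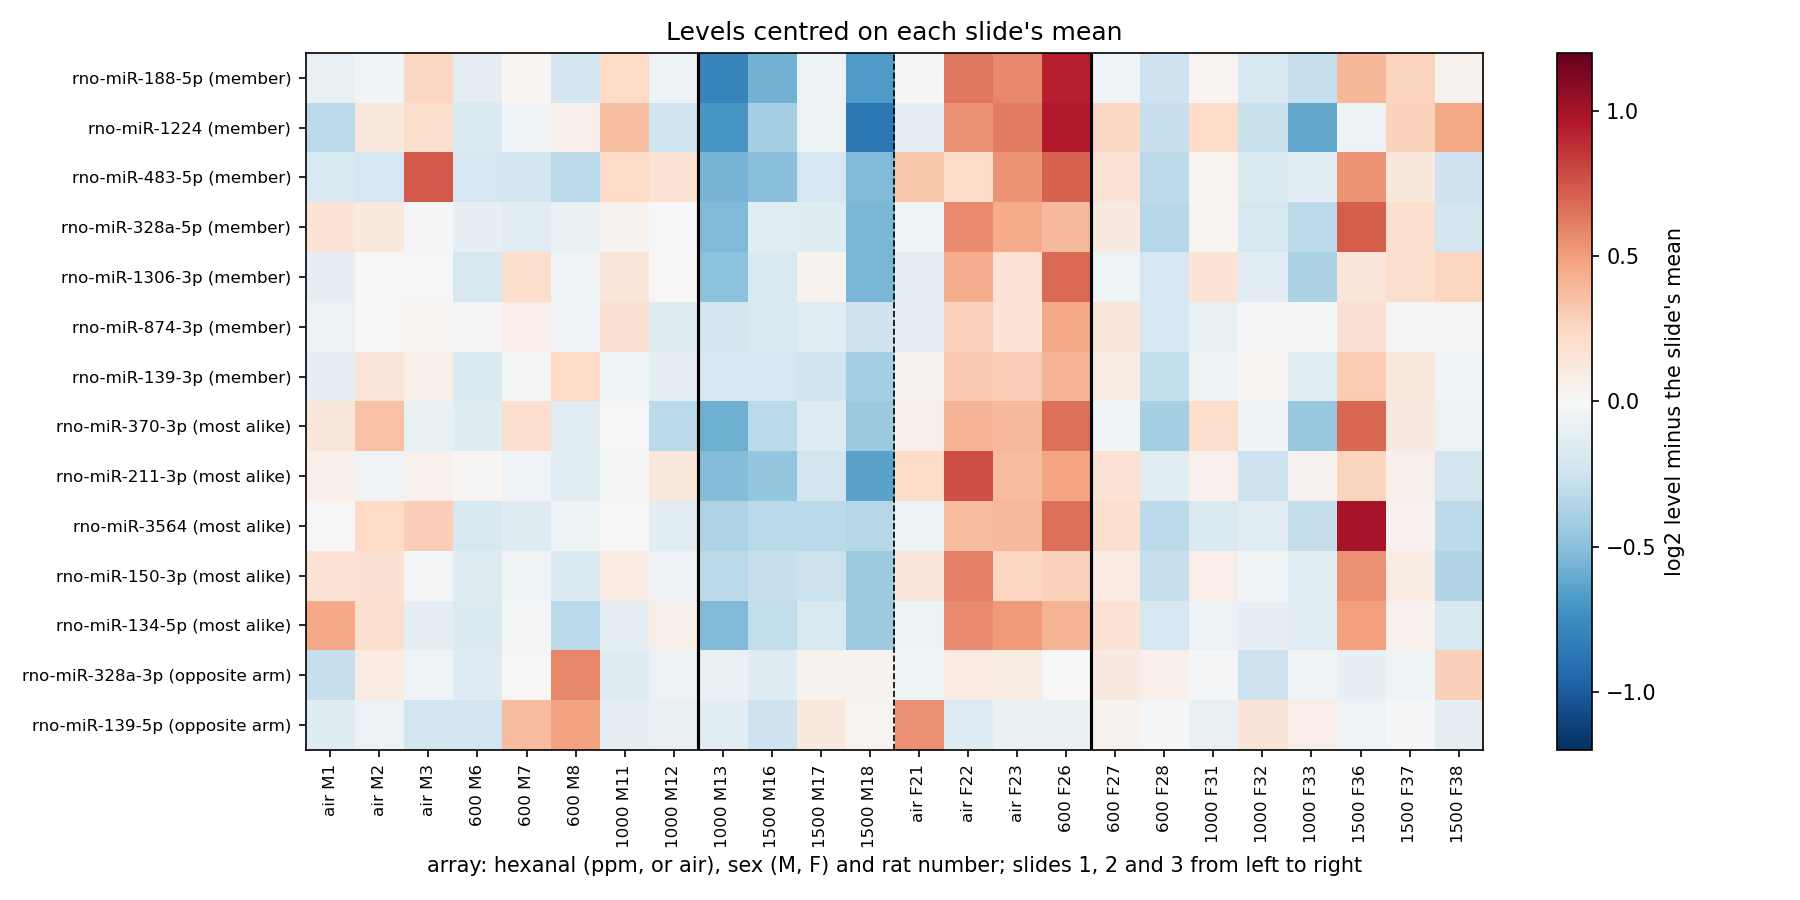
Log2 level minus the slide's mean (colour) of the 7 members, the 5 miRNAs most like them and the 2 measured opposite arms (rows) on the 24 arrays (columns, by slide between solid lines, with a dashed line between the sexes on slide 2). Control rats 22 and 23 and 600 ppm rat 26 of slide 2 are high in the members and in the 5 like miRNAs, and the 2 opposite arms do not follow them.

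The opposite arms of the same hairpins were not used in choosing the members and could be tested. Of 6 such arms on the array, 4 (rno-miR-188-3p, rno-miR-483-3p, rno-miR-1306-5p and rno-miR-874-5p) were above background on no array, the females of slide 2 included, and so give no level. The other 2 were measured. rno-miR-328a-3p was at 6.32 to 6.47 in the females of slide 2 and 6.23 to 6.42 in the males, a difference of 0.07, beside 0.67 for rno-miR-328a-5p. rno-miR-139-5p was at 3.94 to 4.64 in the females and 3.84 to 4.21 in the males, a difference of 0.12, beside 0.52 for rno-miR-139-3p. Both pairs of ranges overlapped. With slide and dose group in the fit, males minus females gave -0.07 ± 0.18 (SE) for rno-miR-328a-3p (limma, adjusted p = 0.85 over 283 miRNAs) and -0.11 ± 0.23 for rno-miR-139-5p (limma, adjusted p = 0.79). Neither passed the threshold, the sign for rno-miR-328a-3p was turned under other scalings (0.07 with quantile normalization), and with normexp background correction the estimates were -0.81 and -1.19, where the median over all 283 miRNAs was itself -0.89. The difference between the arms of a hairpin was itself not tested. rno-miR-328a-3p did differ between slides 1 and 2, by -0.56 ± 0.09 (limma, adjusted p = 2.8e-05), a contrast in which rno-miR-328a-5p was at -0.10 ± 0.16. At no dose did either arm pass the threshold (limma, adjusted p from 0.84 to 0.98).

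Base composition, which the choice of members did not use, can be set beside the difference on slide 2 over the 249 miRNAs with a sequence. Of the miRNAs outside the list, 41 had a guanine share at least that of the lowest member, and 28 of these were higher in the females of slide 2, with a median difference of 0.13. Of the other 202, 82 were higher, with a median of -0.02. Of the 24 that also reached the lowest member's share of guanine and cytosine, 20 were higher, with a median of 0.21, which is under the smallest difference of any member. Over all 249, Spearman's rho of the difference was 0.14 with the guanine share, 0.33 with the share of guanine and cytosine and -0.40 with the mean log2 level. Unlike the counts above, these values include the members, which were chosen for a shared shift. These are correlations across miRNAs measured on the same 8 arrays, given as a description, and probe brightness and base composition both differ between probes.

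**Figure D5:**
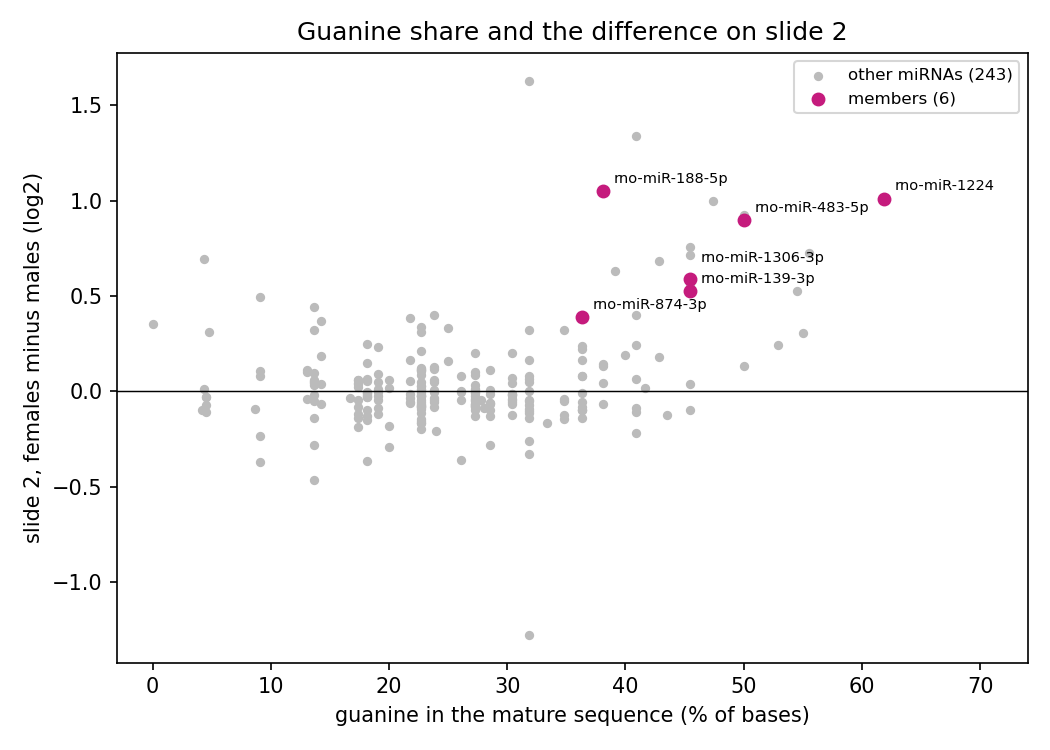
Share of guanine in the mature sequence (horizontal axis, % of bases) and females minus males on slide 2 (vertical axis, log2 difference) for 249 miRNAs. The 6 members with a sequence (coloured and named) sit at 36.4% or more and at 0.39 or more, among other guanine-rich miRNAs that reach from below 0 to above 1.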

How the data were processed

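Total RNA from rat lung was labelled with Cy3 and hybridised to Agilent rat miRNA arrays. Per the file headers, the authors extracted the intensity of each spot with Agilent Feature Extraction 11.5.1.1, which subtracts the background, and the deposited series table holds total gene signals, of which 10131 of 17256 are set to 1. Processed intensities were averaged over the spots of a probe, scaled by the 75th percentile over 394 probes well above background on all arrays, floored and taken to log2. Probes were dropped unless over 50% of their spots carried the well-above-background flag on 6 or more of the 24 arrays, which left 555 of 1730 probes and 283 miRNAs, and the probes of a miRNA were averaged. Slides were read from the header. Fits used limma 3.58.1 (lmFit, eBayes, Benjamini-Hochberg over 283 miRNAs) in R 4.3.3, and the script was tested on simulated data. Members and lists were chosen with earlier results of these data known. Named beside the members were opposite arms, the 5 miRNAs most like them and tissue markers. The labels name separate rats, and with 1 array for each the number of arrays limits the precision. No spot was saturated.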

Additional observations from a re-analysis of the deposited data

Results flagged for a closer look

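The level of 1 array stood apart in the 600 ppm group for 3 members. The 600 ppm female of slide 2 (rat 26) was at log2 6.68 for rno-miR-188-5p, against 5.08 ± 0.12 (SD, n = 5) in the other rats of the group, and the gap to the next rat was 0.836 of the range of the group. For rno-miR-1224 it was at 11.38 against 9.75 ± 0.21 (gap 0.717 of the range), and for rno-miR-483-5p at 6.63 against 5.43 ± 0.18 (gap 0.669). For the mean of the 7 members it was at 6.47 against 5.46 ± 0.15 (gap 0.711). In 32 sets of 6 rats examined, chance would mark about 1.6. The 4 marked here are the same rat, the only one of its group on slide 2, in miRNAs that were chosen for moving together. They therefore cannot be weighed against that number.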

How the results depend on the processing

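A median over the members was counted as moved when it shifted by more than 0.29, the residual SD of their mean. The offset of slide 1 from slide 2 (-0.23) moved to 0.30 in the series table, -0.69 with normexp background correction, 0.38 with sex in the fit and 0.35 without the 4 females of slide 2, an omission chosen after seeing the data, as was half-slide. The offset of slide 3 (-0.29) moved to -0.92 with sex and 0.12 without those females. The difference at 600 ppm (-0.11) moved to 0.39 with normexp. That at 1000 ppm (-0.39) moved to 0.10 with sex, 0.23 with half-slide and -0.036 without those females. That at 1500 ppm (-0.29) moved to 0.27, 0.47 and 0.22 in the same order, all of them indirect comparisons through the lower doses. With 1 array left out in turn, these 5 medians ran from -0.32 to -0.06, -0.41 to -0.11, -0.37 to -0.04, -0.51 to -0.24 and -0.38 to -0.19. The cause was not tested.

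For males minus females with slide and dose group, the 10 miRNAs and 7 members past the threshold became 2 and 1 with the percentile over all probes or no filter on dim probes, 0 and 0 in the series table, with normexp or with slide as a random block, and 124 and 1 with no slide in the fit. Quantile normalization left 4 members. With 1 array left out the counts ran from 2 to 16 miRNAs and from 1 to 7 members, and each count moved by over 1.5 times in 13 of the 24 omissions. All 7 members stayed below 0 in each of the 34 fits with slide as a fixed term, with medians from -1.25 to -0.79. Normexp also moved the median of all 283 miRNAs, to -0.89 for this contrast (members -0.36 relative to it), -0.62 and -0.40 for the offsets of slides 1 and 3, and 0.46 at 600 ppm (members -0.08 relative to it). The series table moved it to 0.24, 0.46, 0.25 and -0.13. Of the opposite arms, rno-miR-139-5p ran from -1.19 (normexp, limma adjusted p = 0.081) to 0.14 (no slide) over its 34 alternatives, passing the threshold in none, and rno-miR-328a-3p ran from -0.81 (normexp) to 0.09 (series table) over 35 and passed it with no slide in the fit (-0.28).

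Members within a few units of the floor, rno-miR-874-3p above all, can have understated differences. No paired analysis was possible because the groups share no replicate numbers.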
